A study of Homo sapiens with 4 samples.

Results

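Levels of 10 non-coding genes that carry small nucleolar RNAs (snoRNAs) in their introns were measured in PLC8024 cells, a line from a human liver cancer: SNHG1, SNHG5, SNHG6, SNHG7, SNHG8, SNHG12, SNHG15, SNHG16, GAS5 and ZFAS1. They were chosen by gene symbol, and all 10 were found among the 26603 genes of the deposited table. Messenger RNA was sequenced in 2 libraries labelled drug and 2 labelled control. The labels give neither the drug's name, dose and duration nor what the control cells received, and they leave unsaid whether each library was a culture of its own. The p-values therefore cover the spread between these 4 libraries, which may be technical. The series has a single comparison, drug against control.

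SnoRNA host genes are spliced like messenger RNAs, but what the cell keeps for its ribosomes lies in the introns. After splicing, the excised introns are trimmed to snoRNAs, which direct methylation (box C/D class) or pseudouridylation (box H/ACA class) of ribosomal RNA. The joined exons of many of these genes encode no conserved protein. For several, GAS5 among them, ribosomes start on short reading frames and nonsense-mediated decay (NMD) then degrades the spliced RNA, so the amount of exon RNA depends on decay and translation as well as transcription. Many host genes share a promoter form with ribosomal protein genes, in which transcription starts at a C followed by a run of pyrimidines (5′ terminal oligopyrimidine, TOP).

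RefSeq start regions were at hand for 8 of the 10 genes, on GRCh38.p14. In 6 of the 8, a C followed by a run of pyrimidines begins within 10 bases of the annotated start. The run begins at the annotated start itself in SNHG5 and ZFAS1 alone, so the 6 are not a count of TOP starts. In the lines that follow, each region runs 5′ to 3′ on the gene's own strand and holds 45 bases before the annotated start and 30 bases from it onward. Capitals mark TATAA and the pyrimidine run. The first 5 genes have both, SNHG16 has the run alone, and SNHG1 has neither under this search.
SNHG5, chr6:85678704-85678778, minus strand: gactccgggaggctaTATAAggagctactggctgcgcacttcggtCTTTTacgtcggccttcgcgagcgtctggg
SNHG7, chr9:136728155-136728229, minus strand: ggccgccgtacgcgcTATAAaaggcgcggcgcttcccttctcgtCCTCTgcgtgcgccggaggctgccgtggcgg
SNHG8, chr4:118278717-118278791, plus strand: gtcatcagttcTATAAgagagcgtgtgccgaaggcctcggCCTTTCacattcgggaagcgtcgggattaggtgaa
SNHG12, chr1:28581844-28581918, minus strand: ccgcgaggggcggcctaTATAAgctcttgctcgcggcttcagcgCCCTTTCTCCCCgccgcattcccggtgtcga
ZFAS1, chr20:49278597-49278671, plus strand: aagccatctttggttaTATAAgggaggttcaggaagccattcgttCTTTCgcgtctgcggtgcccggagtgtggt
SNHG16, chr17:76557719-76557793, plus strand: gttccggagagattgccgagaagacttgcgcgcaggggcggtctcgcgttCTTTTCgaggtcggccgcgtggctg
SNHG1, chr11:62855856-62855930, minus strand: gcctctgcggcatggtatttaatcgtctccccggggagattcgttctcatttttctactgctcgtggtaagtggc

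The search was made on the gene's strand only. TATAA had to begin 15 to 50 bases before the annotated start, and the pyrimidine run, a C followed by at least 4 pyrimidines, had to begin within 10 bases of it. TATAA was present in 5 of the 8 regions, against 4.43% of 35116 RefSeq promoters. The pyrimidine run was present in 6 of 8, against 30.4% of promoters, and the pair of motifs in 5 of 8, against 1.35%. The E-box CACGTG, which reads the same on both strands, was sought anywhere from 250 bases before the start to 50 after it. It was present in SNHG7 alone, 1 of 8, against 7.26% of promoters. The RefSeq start of GAS5 lies 163 bases upstream of the GENCODE 29 gene start, and its window held none of these motifs.

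The exon RNA of the 10 genes covered a wide span of levels. In FPKM, the fragments of a gene relative to its exon length and to the library's total, GAS5 was highest, with 38.3 and 40.8 FPKM in the drug libraries, against 35.0 and 36.9 FPKM in the control libraries. SNHG1 had 36.5 and 35.7 FPKM with drug, against 36.3 and 35.1 FPKM in controls. SNHG6 followed, with 30.9 and 31.0 FPKM with drug, against 30.1 and 30.2 FPKM in controls. These 3 genes stood well above the other 7, of which the highest, SNHG15, had 9.59 and 9.94 FPKM with drug, against 9.32 and 9.72 FPKM in controls. In falling order of control mean, SNHG7, SNHG16, SNHG8, SNHG12, ZFAS1 and SNHG5 followed SNHG15. Ranges over the 4 libraries overlapped between neighbours in that order for GAS5 with SNHG1 and for SNHG7 with SNHG16, and for no other neighbouring pair. Within a group, the libraries of a gene differed by at most 1.28-fold.

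**Figure D1:**
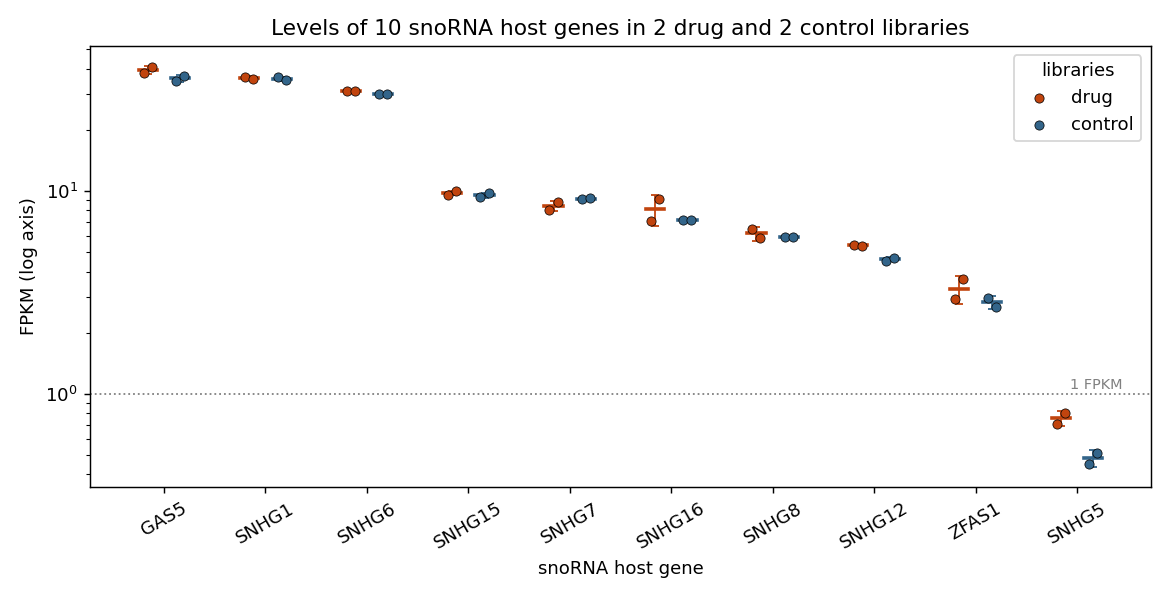
FPKM (log axis) of each snoRNA host gene in the 2 drug libraries (left of each pair) and the 2 control libraries (right), with points for libraries, bars for means and whiskers for SD. GAS5, SNHG1 and SNHG6 lie at 30.1 FPKM or above, and SNHG5 is the one gene under the 1 FPKM line in all 4 libraries.

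None of the 9 host genes that averaged 1 FPKM or more in either group passed limma on log2(FPKM + 1) at a Benjamini-Hochberg adjusted p under 0.05. Limma log2 fold changes throughout are on this FPKM + 1 scale, which understates those of low genes. Of 11227 genes tested there, 7.78% were called higher and 6.02% lower with drug. At an unadjusted p under 0.05, 2 of the 9 passed, GAS5 and SNHG12, both higher, against 21% of all genes tested higher and 12.1% lower. EdgeR on whole reads recovered from the table tested all 10 genes and called 1 higher, SNHG5, and 0 lower, where 5.75% of 16559 genes were called higher and 7.22% lower. DESeq2 also called 1, against 7.6% of 13709 genes higher and 8.91% lower. The median log2 fold change of the 9 genes was 0.05, and that of all genes tested with limma was 0.04. With edgeR the median of the 10 genes was 0.066, against 0.0002 for all genes tested. The 95% intervals of the 9 fold changes, on the FPKM + 1 scale, reached no lower than 0.850-fold and no higher than 1.34-fold. Of the 9, 3 had both drug libraries above both controls and 1 had both below, against 40.3% and 23.3% of the genes tested. Sums over the 10 genes were 146 and 151 FPKM with drug, against 141 and 142 FPKM in controls. As a share of all recovered reads they made up 0.0630% and 0.0658% with drug, against 0.0605% and 0.0610% in controls.

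SNHG5, the host of the SNORD50 box C/D snoRNAs and known for a chromosome translocation with BCL6 in lymphoma, was the least abundant of the 10 and had the largest fold change. Its values were 0.709 and 0.802 FPKM in the drug libraries, against 0.448 and 0.512 FPKM in the control libraries, and the groups did not overlap. Recovered reads were 360 and 391 with drug, against 161 and 249 in controls. Relative to library totals, these were 8.94 and 10.1 RPM with drug, against 5.64 and 6.45 RPM in controls. Means were 0.755 ± 0.0656 FPKM with drug and 0.480 ± 0.0452 FPKM in controls (SD, n = 2 each), a ratio of 1.57. SNHG5 was under the 1 FPKM filter of the limma fit. Tested on reads it rose, with a log2 fold change of 0.62 (edgeR adjusted p = 0.0167). DESeq2 on the same reads gave 0.62 ± 0.17 SE (adjusted p = 0.0033). In the authors' deposited table its log2 fold change was 0.62 (authors' adjusted p = 0.0064), but the table marks the gene as stable. At the threshold of 0.05, 3.18% of 26603 genes there were higher and 4.03% lower. The reads were recovered from the same deposited values, so the DESeq2 result and that of the authors are not separate support. In limma without the filter, where 0.639% of genes were called higher and 0.804% lower, the log2 fold change on the FPKM + 1 scale was 0.25 ± 0.08 SE (adjusted p = 0.277). SNHG5 lies on the minus strand of chromosome 6, at 85660950 to 85678748 in GRCh38. SNORD50B, which lies inside it, is shown here with its C and D boxes (TGATGA and CTGA) in capitals, since these short motifs mark what the host gene releases.
SNORD50B, chr6:85677589-85677658, minus strand: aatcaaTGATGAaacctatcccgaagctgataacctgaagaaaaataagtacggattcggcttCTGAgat

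SNHG12 hosts SNORD99 and several box H/ACA snoRNAs, and carries the longest pyrimidine run of the 8 start regions, 12 bases. Its values were 5.41 and 5.35 FPKM in the drug libraries, against 4.52 and 4.66 FPKM in the control libraries. Both drug libraries lay above both controls. The means were 5.38 ± 0.0397 FPKM with drug and 4.59 ± 0.101 FPKM in controls (SD, n = 2 each), a ratio of 1.17. On the FPKM + 1 scale, the log2 fold change of 0.19 ± 0.04 SE missed the threshold (limma adjusted p = 0.0512). With a pseudocount of 0.1 in place of 1 it passed (limma adjusted p = 0.0485), and edgeR on reads gave 0.19 (adjusted p = 0.120).

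GAS5, a growth-arrest gene whose RNA accumulates when cells stop growing and whose exon RNA can bind the glucocorticoid receptor, had the most reads of the 10. There were 7610 and 7784 reads in the drug libraries, against 4920 and 7022 in the control libraries. In FPKM the drug libraries lay above both controls, with means of 39.5 ± 1.76 FPKM with drug and 35.9 ± 1.35 FPKM in controls (SD, n = 2 each). The log2 fold change of 0.13 ± 0.04 SE did not pass (limma adjusted p = 0.108), nor did the 0.10 of edgeR (adjusted p = 0.138).

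SNHG7, the host of the SNORA17 box H/ACA snoRNAs, was the only 1 of the 10 with both drug libraries below both controls. Its values were 8.06 and 8.77 FPKM with drug, against 9.10 and 9.19 FPKM in controls. The log2 fold change was -0.11 ± 0.05 SE (limma adjusted p = 0.195), and -0.16 with edgeR (adjusted p = 0.0836). With edgeR and drug library 2 left out, so with a lone drug library, the value was -0.20 (adjusted p = 0.0336). The other 3 leave-outs did not pass (edgeR adjusted p = 0.170, 0.184 and 0.362).

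SNHG16 hosts SNORD1A, SNORD1B and SNORD1C, and ZFAS1, which runs antisense from the start region of ZNFX1, hosts the SNORD12 group. SNHG16 had 7.11 and 9.10 FPKM in the drug libraries, against 7.22 and 7.19 FPKM in the control libraries. ZFAS1 had 2.91 and 3.66 FPKM with drug, against 2.97 and 2.68 FPKM in controls. For each gene drug library 2 was the highest of the 4, while drug library 1 lay just under both controls for SNHG16 and between them for ZFAS1. Neither passed: the log2 fold changes were 0.14 ± 0.11 SE for SNHG16 (limma adjusted p = 0.403) and 0.16 ± 0.10 SE for ZFAS1 (limma adjusted p = 0.326). Without drug library 1 the limma values were 0.30 and 0.29, and without drug library 2 they were -0.02 and 0.03. On reads without drug library 1, edgeR gave log2 fold changes of 0.29 for SNHG16, 0.33 for ZFAS1, 0.13 for GAS5 and 0.69 for SNHG5. Without drug library 2 the edgeR values were -0.04, 0.03, 0.07 and 0.54 in the same order. Each of those fits rests on a lone drug library.

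SNHG1, described at first as the host of U22, SNHG6, the host of SNORD87, SNHG8, the host of SNORA24, and SNHG15, the host of SNORA9, were the closest to no difference. The SNHG1 means were 36.1 ± 0.584 FPKM with drug and 35.7 ± 0.869 FPKM in controls (SD, n = 2 each). Its log2 fold change was 0.01 ± 0.03 SE (limma adjusted p = 0.783) and -0.02 with TMM-scaled FPKM, so its sign depends on the scaling. SNHG6 had the tightest libraries, and although both drug values exceeded both controls, the log2 fold change was 0.04 ± 0.03 SE (limma adjusted p = 0.356). SNHG8 had 6.52 and 5.82 FPKM with drug, against 5.91 and 5.90 FPKM in controls, with the controls inside the drug range (log2 fold change 0.05 ± 0.06 SE, limma adjusted p = 0.579). SNHG15 differed by 0.03 ± 0.04 SE (limma adjusted p = 0.608). The 95% interval of the fold change on the FPKM + 1 scale was 0.955 to 1.07 for SNHG1, 0.981 to 1.08 for SNHG6, 0.934 to 1.15 for SNHG8 and 0.952 to 1.10 for SNHG15.

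**Figure D2:**
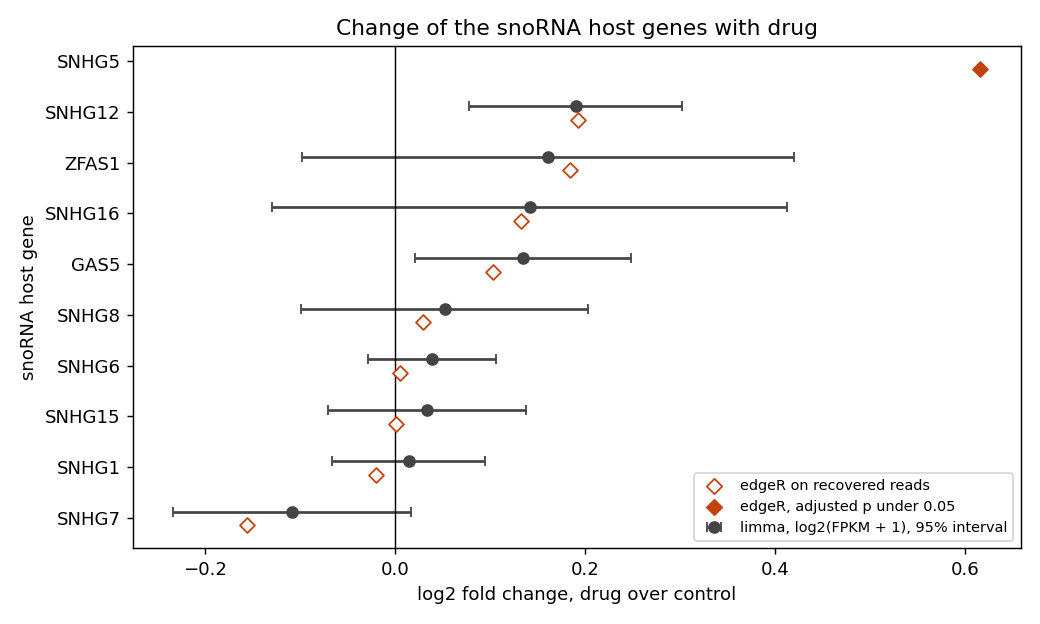
Log2 fold change of each host gene, drug over control, by limma on log2(FPKM + 1) with 95% intervals (grey circles, 9 genes) and by edgeR on recovered reads (diamonds, filled where the adjusted p is under 0.05). SNHG5 at 0.62 is the one filled diamond, and SNHG7 has the lowest values, -0.11 with limma and -0.16 with edgeR.

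The levels depend on the exon lengths behind FPKM, while the length itself cancels in ratios of FPKM between groups. Which reads are counted also depends on the gene model, and the part of this in the ratios was not tested. The table's reads and FPKM imply a length for each gene, and this was longer than the merged GENCODE 29 exons for 9 of the 10. Of the table's genes with an ID in GENCODE 29, 64.7% lay within 1%. The implied length was 12605 bases for SNHG5, against 2806 in GENCODE 29, and 6614 bases for SNHG8, against 923. For ZFAS1 it was 8316 bases, against 2243, and for SNHG6 2527 bases, against 1247. GAS5 exceeded its GENCODE 29 length 1.36-fold, SNHG12 matched it, and the other 4 exceeded it by less. The values on GENCODE 29 lengths keep all reads of a gene, as if none lay outside the GENCODE 29 exons, which was not tested. They would be lower if some did. On GENCODE 29 lengths SNHG5 would average 3.39 FPKM with drug and 2.15 FPKM in controls, above the 1 FPKM filter, and SNHG8 44.2 FPKM with drug and 42.3 FPKM in controls. SNHG8, seventh in control FPKM as deposited, would thus stand between GAS5 (48.8 FPKM in controls) and SNHG1 (37.8 FPKM in controls). SNHG6 (61.0 FPKM in controls) would be the highest in place of GAS5. By RPM, which uses no length, the controls placed GAS5, SNHG1 and SNHG6 at the top and SNHG5 at the bottom, as FPKM did.

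**Figure D3:**
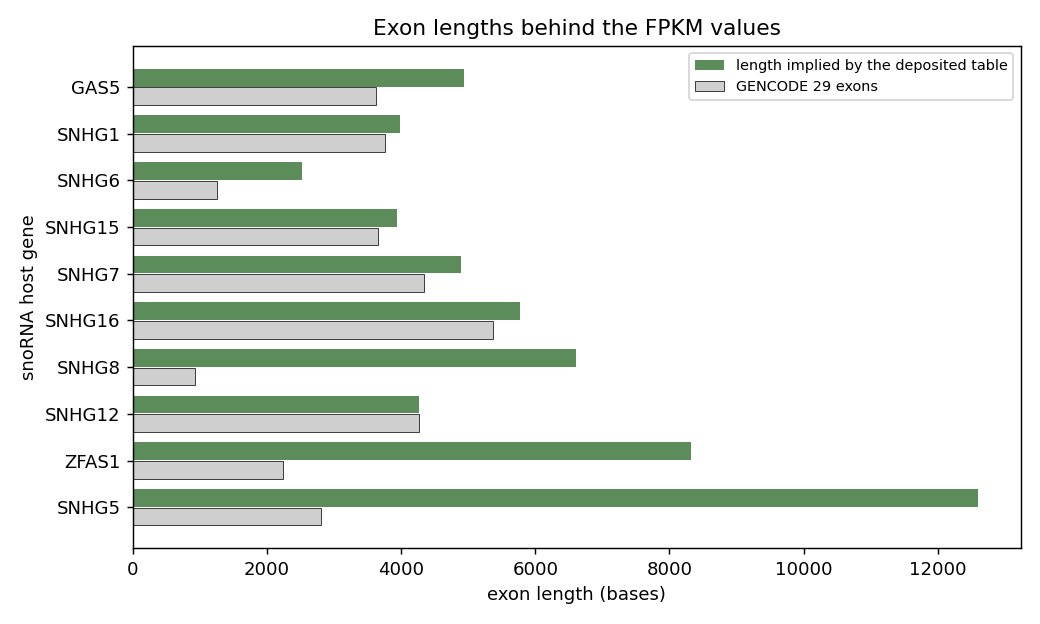
Exon length in bases of each host gene as implied by the deposited values (green) and as the merged exons in GENCODE 29 (grey). SNHG5 (12605 against 2806 bases), ZFAS1 (8316 against 2243) and SNHG8 (6614 against 923) differ most in length.

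GENCODE 29 places 26 snoRNA entries, some of them duplicates, inside 9 of the host genes. The same search found 0 entries inside GAS5, so its snoRNAs are not covered here. The table lists 3 of the 26, all of which overlap no exon of their host, and polyadenylated RNA libraries hold few fragments of such short RNAs. SNORD12C, in ZFAS1, had 44 and 53 reads in the drug libraries, against 31 and 34 in the control libraries. Its FPKM were 12.3 and 15.4 with drug, against 12.2 and 9.89 in controls, so drug library 2 was the highest of the 4, as for its host (log2 fold change 0.30 ± 0.13 SE, limma adjusted p = 0.194). SNORD12C is shown with its C and D boxes in capitals, as the 1 of these snoRNAs whose drug libraries both lay above its controls.
SNORD12C, chr20:49278940-49279028, plus strand: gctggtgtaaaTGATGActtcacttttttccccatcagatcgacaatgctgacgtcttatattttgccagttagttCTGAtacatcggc
SNORD99, in SNHG12, had 23 and 15 reads with drug, against 14 and 25 in controls, and the groups overlapped (limma adjusted p = 0.457). SNORD1B, in SNHG16, had 0 and 3 reads with drug, against 2 and 1 in controls, too few for a comparison. No change in these snoRNAs was detected, with a 95% interval of 0.970 to 1.56-fold for SNORD12C and 0.608 to 1.20-fold for SNORD99 on the FPKM + 1 scale. Reads in them cannot be told apart from unspliced host RNA.

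Several host genes share exon sequence with genes on the opposite strand, and the strand used in counting is not given in the sources used here, so reads of such partners cannot be told apart. ZFAS1 shares 249 exon bases with ZNFX1, which encodes a zinc finger helicase. ZNFX1 had 7.63 and 7.83 FPKM in the drug libraries, against 5.712 and 5.998 FPKM in the control libraries, with no overlap. It rose by a log2 fold change of 0.35 ± 0.04 SE (limma adjusted p = 0.0122), although with any 1 library left out it no longer passed (limma adjusted p from 0.0536 to 0.0696). SNHG7 shares 1094 bases with FAM69B, which had 1.69 and 2.00 FPKM with drug, against 2.27 and 1.82 FPKM in controls, and did not differ beyond its spread (limma adjusted p = 0.567). SNHG6 shares 365 bases with MCMDC2, a gene with 75 reads or fewer in each library. GAS5 shares 42 bases with its antisense gene GAS5-AS1, and SNHG12 shares 8 with TRNAU1AP. In the list of genes beside the host genes, limma called ZNFX1 higher and none of WDR74, SLC3A2, ZBTB37, TRNAU1AP and CCM2, 1 of 6, against 7.78% of all genes.

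The other genes of the snoRNA pathway, were taken from lists written with earlier results of these data known. Their counts stand against 7.78% of all genes called higher and 6.02% called lower with limma. Among 13 other non-coding host genes tested, 1 rose and 1 fell with limma (7.69% each), shares near those of all genes. SNHG11 had 3.725 and 3.496 FPKM in the drug libraries, against 2.18 and 2.38 FPKM in the control libraries. Its log2 fold change on the FPKM + 1 scale was 0.49 ± 0.06 SE (limma adjusted p = 0.0139). SNHG21 had 1.344 and 1.252 FPKM with drug, against 1.86 and 1.94 FPKM in controls. Its log2 fold change on that scale was -0.34 ± 0.08 SE (limma adjusted p = 0.0484, but edgeR adjusted p = 0.130). On reads, edgeR called 1 of 15 higher and 3 lower, against 5.75% and 7.22% of all genes tested. The 3 were SNHG3, SNHG14 and DANCR, named here after their values were seen. The list's median log2 fold change with limma was -0.06, against 0.04 for all genes.

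Ribosomal protein genes that host snoRNAs are a protein-coding counterpart, with the TOP promoter form described above for many host genes. Of 25 tested with limma 0 rose and 7 fell (28%, against 6.02% of all genes), with a median log2 fold change of -0.11. Of the 25, 22 had both drug libraries below both controls, against 23.3% of all genes. The 7 calls became 1 with a replicate block in limma, and 0 without the filter or with any 1 library left out. RPL3, a protein of the large subunit's core, had 286 and 286 FPKM with drug, against 324 and 320 FPKM in controls (log2 fold change -0.17 ± 0.02 SE, limma adjusted p = 0.0155). RPL21, another large-subunit protein, fell by 0.20 ± 0.04 SE on the log2 scale (limma adjusted p = 0.0428). EdgeR called 18 of 26 lower, and 20 were lower in the authors' deposited table at the same threshold. Ribosomal protein genes have near-identical copies, and how the counting split such reads is not given in the sources used here. RPL7A, for example, was listed at 0.533 FPKM or less in every library.

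The other 18 protein-coding hosts had 4 calls higher and 1 lower with limma (22.2% and 5.56%, against 7.78% and 6.02% of all genes), with a median log2 fold change of 0.05. HSPA8, the constitutive cytosolic HSP70 chaperone, had 566 and 558 FPKM with drug, against 459 and 474 FPKM in controls (log2 fold change 0.27 ± 0.03 SE, limma adjusted p = 0.0084). NOP58, itself a core protein of box C/D particles, had 58.7 and 57.1 FPKM with drug, against 51.7 and 49.8 FPKM in controls (limma adjusted p = 0.0253). EEF2, the translocation factor of translation, had 427 and 440 FPKM with drug, against 484 and 476 FPKM in controls (limma adjusted p = 0.0342). EEF1B2, a translation elongation factor subunit named here after its values were seen, had 2.18 and 105 FPKM with drug, against 2.20 and 2.27 FPKM in controls, so 1 library alone gave its edgeR call (adjusted p = 0.0483).

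Genes for snoRNP proteins, which package and assemble snoRNAs, had 4 of 13 tested called higher and 0 lower with limma (30.8% higher, against 7.78% of all genes), with a median log2 fold change of 0.13. NOP56, NOP58 and DKC1 are also among the other coding hosts, so the calls of NOP58 and DKC1 as higher count in both lists. FBL, fibrillarin, the methyltransferase of box C/D particles, had 43.0 and 43.3 FPKM in the drug libraries, against 2.46 and 3.72 FPKM in the control libraries (log2 fold change 3.45 ± 0.14 SE, limma adjusted p = 0.0010). It stood far apart from the other 12. Like EEF1B2, FBL had libraries at a few FPKM beside others many times higher, and how reads were assigned to it in the deposited table was not tested. ZNHIT6, an assembly factor of box C/D particles, had 14.3 and 14.3 FPKM with drug, against 11.7 and 12.4 FPKM in controls (limma adjusted p = 0.0273). Of 10 NMD factor genes 2 rose and 0 fell (20% higher, against 7.78% of all genes), with a median log2 fold change of 0.14. UPF2 had 17.5 and 16.8 FPKM with drug, against 14.3 and 14.9 FPKM in controls (limma adjusted p = 0.0296), and the helicase UPF1 had 15.3 and 16.1 FPKM with drug, against 13.7 and 13.2 FPKM in controls (limma adjusted p = 0.0345). Of 8 messenger RNAs known as NMD targets 0 rose and 2 fell with limma (25% lower, against 6.02% of all genes). The fallers were SLC7A11, the cystine transporter, with 3.54 and 3.88 FPKM with drug, against 5.09 and 4.74 FPKM in controls (limma adjusted p = 0.0321), and ATF4, a stress transcription factor, with 132 and 131 FPKM with drug, against 142 and 145 FPKM in controls (limma adjusted p = 0.0347). EdgeR called both of these lower and CARS1, a cysteine transfer RNA synthetase gene named here after its values were seen, higher (log2 fold change 0.50, adjusted p = 0.0170). With any 1 library left out, SLC7A11 and ATF4 no longer passed (limma adjusted p from 0.0689 to 0.143). In those fits limma called 0 of the ribosomal protein, other non-coding host and NMD factor genes, 1 snoRNP gene (FBL), and 0 to 2 of the other coding hosts as higher.

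**Figure D4:**
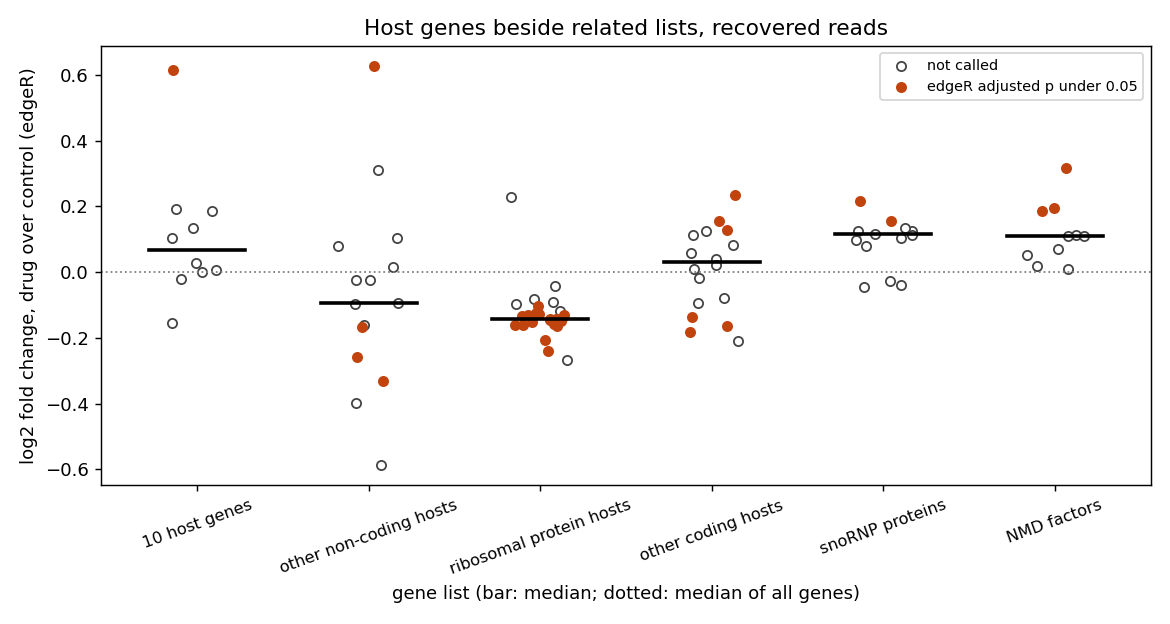
Log2 fold change, drug over control, by edgeR on recovered reads for the 10 host genes and 5 related lists, with bars for medians and a dotted line for the median of all genes. Of the ribosomal protein hosts 18 of 26 are called lower, against 7.22% of all genes tested. SNHG5 is the one call among the 10 host genes, whose median is 0.066, against 0.0002 for all genes. FBL (3.74) and EEF1B2 (4.53) lie beyond the axis and are left out.

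Recovered reads totalled 40279566 and 38685862 in drug libraries and 28526123 and 38611671 in control libraries. The liver transcription factor HNF4A had 25.4 and 25.5 FPKM with drug, against 22.5 and 22.3 FPKM in controls, and keratin KRT8 had 171 and 180 FPKM with drug, against 130 and 137 FPKM in controls. KRT18 had 221 and 233 FPKM with drug, against 158 and 164 FPKM in controls, and APOA1 had 14.3 and 15.4 FPKM with drug, against 17.5 and 17.1 FPKM in controls. KRT19 had 0.701 and 0.675 FPKM with drug, against 1.43 and 0.965 FPKM in controls, and EPCAM 0.143 and 0.234 FPKM with drug, against 0.317 and 0.192 FPKM in controls. Albumin (ALB) was low, with 1.31 and 1.32 FPKM with drug, against 3.15 and 3.23 FPKM in controls, AFP stayed under 0.45 FPKM and TTR at or near 0. Of 4 markers of other cell types, COL1A1, COL3A1 and CDH5 stayed under 0.09 FPKM, and the endothelial gene PECAM1 had 2.09 and 2.23 FPKM with drug, against 4.66 and 4.11 FPKM in controls. The part of these marker differences in the host gene values was not tested. By pattern across the 4 libraries, the summed FPKM of the 10 host genes was closest to DHX33, CNNM1 and MUS81 among 3674 genes of at least 10 FPKM. The root mean square difference of their log2 deviations was 0.0038, 0.0042 and 0.0055 over the 4 libraries.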

How the data were processed

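Libraries were made by a stranded polyadenylated RNA protocol, per the labels' protocols. Per the submitters' processing notes, bcl2fastq and the hg38 build were used. Aligner, counter and annotation: not given in the sources used here. All 4 per-library columns are deposited FPKM, a unit read from the values. Each group also has a deposited column of mean normalized reads (a signal). The log2 fold changes and p-values in the table are the authors' own, per the file headers.

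Whole reads were recovered from FPKM and group means. The share of values within 0.1 of a whole number was 98.9% to 99.6% per library. Genes with 2 reads outnumbered those with 1 in every library (1933 and 794 in drug library 1, for example), so reads are not independent molecules.

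Genes that averaged 1 FPKM or more in either group entered limma 3.58.1 (trend) on log2(FPKM + 1), whose fold changes understate those of low genes, with Benjamini-Hochberg adjustment over 11227 genes. EdgeR 4.0.16 and DESeq2 1.42.0 on recovered reads were alternatives. Tests were checked on simulated data. Same-numbered drug and control libraries did not deviate together (correlation 0.0278), so numbers were not treated as pairs. The members and lists were chosen with earlier results of these data known. Named genes were all 10 members, up to 2 largest risers and 2 largest fallers that passed per list, FBL, and resident snoRNAs in the table. Promoters came from RefSeq, and gene models and snoRNA sequences from GENCODE 29. Software was matplotlib 3.10.9, pandas 2.3.3, numpy 2.4.6, Python 3.11.15 and R 4.3.3.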

Additional observations from a re-analysis of the deposited data

How the results depend on the processing

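The values of 9 host genes were recomputed under 17 alternatives and those of SNHG5, which is under the limma filter, under 10. Of these, those with edgeR and a library left out or a block, and the pseudocount of 0.1 without a filter, were chosen after seeing the data. SNHG16, at 0.29 with edgeR without drug library 1, was at -0.02 with limma and -0.04 with edgeR without drug library 2. Over all genes, 873 were called higher and 676 lower. More genes were lower than higher with DESeq2 (1042 higher, 1222 lower), edgeR (952 and 1195), edgeR without a filter (1419 and 1549) and TMM-scaled FPKM (554 and 779). Without the filter 170 and 214 were called, and with a pseudocount of 0.1 and no filter 236 and 283. The replicate block gave 474 and 451 with limma, and 1170 higher and 1381 lower with edgeR.

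Of the host genes, 1 was called higher with edgeR (with and without a filter), with DESeq2 and with a pseudocount of 0.1. With edgeR and the replicate block 2 were called higher, where 1170 of all 16559 genes tested were. These 2 were SNHG5 (edgeR adjusted p = 0.0070) and GAS5 (edgeR adjusted p = 0.0491, against 0.138 without the block). Other non-coding hosts had 3 lower with DESeq2 and edgeR (with and without a filter), 0 higher and 0 lower without the filter, and 0 lower with the block. Ribosomal protein hosts had 20 lower with DESeq2, 18 with edgeR, 19 with edgeR without a filter, 0 without the filter in limma and 1 with the block. Other coding hosts had 4 lower with DESeq2, 3 with edgeR, 6 higher and 3 lower with edgeR without a filter, 2 and 2 with TMM-scaled FPKM, and 0 and 0 without the filter, while the block left 0 lower. SnoRNP genes had 2 higher with TMM-scaled FPKM and with the block, and 1 without the filter. NMD factors had 4 higher with DESeq2, 3 with edgeR (with and without a filter), 1 with TMM-scaled FPKM, and 0 without the filter and with the block.

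Leaving out each library in turn, limma calls over all genes ran between 115 and 221 higher and between 188 and 274 lower, and those of edgeR between 716 and 1097 higher and between 930 and 1407 lower (1269 without drug library 2). Host genes called were 0 higher and 0 lower with limma, and 1 to 4 higher and 0 to 1 lower with edgeR. Among the lists, for which libraries were left out with limma alone, other non-coding hosts, ribosomal protein hosts and NMD factors had 0, other coding hosts 0 to 2 higher and 0 to 1 lower, and snoRNP genes 1 higher. SNHG5 remained called by edgeR in all 4 such fits (adjusted p from 0.0037 to 0.0443). The cause of these changes was not tested. With a library left out, limma tested between 11241 and 11301 genes and edgeR between 17372 and 17509. The limma value of SNHG5 depends on the filter and pseudocount, since its FPKM are under 1.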
